A study of Mus musculus with 24 samples.

Results

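The enzymes that make drugs, dietary compounds, steroids and fatty acids more soluble were followed in sorted gut epithelium of mice. They are the cytochrome P450s of the families Cyp1, Cyp2, Cyp3 and Cyp4, the UDP-glucuronosyltransferases (Ugt1 and Ugt2), the glutathione S-transferases (Gsta, Gstm, Gstp, Gstt and Gsto), the microsomal glutathione S-transferases (Mgst) and the sulfotransferases (Sult). Members were chosen by gene symbol alone, which gave 141 of the 24421 genes in the table after 4 symbols of pseudogenes (ending in -ps) had been dropped. Cyp2 had 49 members, Cyp4 21, Sult 19, Ugt2 10, Cyp3 9, Ugt1 8, Gstm 7, Gsta and Gstt 4 each, Cyp1 and Mgst 3 each, and Gstp and Gsto 2 each. Among the Cyp4 symbols, Cyp4x1os stands for a transcript on the strand opposite Cyp4x1 and not for a P450. All 141 passed the filter on low values in colon (2 or more libraries with 10 or more normalised reads) and 139 passed it in ileum.

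RNA was sequenced from 24 libraries, the colon and the ileum of 12 mice. All mice were C57BL/6, 8-14 weeks old, and all cells were sorted as Villin-tomato+ and CD45-negative, that is, as cells carrying a fluorescent mark of gut epithelium and lacking the surface protein of leukocytes. KO late mice (3) were taken 8 weeks and KO early mice (4) 2 weeks after chimerism. WT irradiated mice (2) were taken 8 weeks after chimerism, and WT non-irradiated mice (3) were untreated. The labels give only KO, while the title of the series names gut macrophages lacking IL-10Rα (a chain of the interleukin-10 receptor) and a response of the epithelium driven by IL-22. The sources used here do not say what the donor cells were. No irradiated WT mouse was taken at 2 weeks, so in KO early the time and the genotype cannot be told apart. The comparisons below ask which of these enzymes differ between colon and ileum and which differ between KO and WT epithelium.

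Detoxification is usually described in steps. In phase 1, cytochrome P450s in the endoplasmic reticulum insert oxygen into a substrate, with electrons from NADPH passed on by P450 oxidoreductase (Por) and cytochrome b5. In phase 2, transferases attach a polar group: glucuronic acid (Ugt), glutathione (Gst, Mgst) or sulfate (Sult), and efflux transporters then carry the product out. The gut epithelium meets swallowed compounds before the liver does, and nuclear receptors such as the pregnane X receptor (Nr1i2), the constitutive androstane receptor (Nr1i3), Ppara and Hnf4a, the aryl hydrocarbon receptor (Ahr) and the stress regulator Nrf2 (Nfe2l2) are known to control many of these genes.

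The promoters of 5 members whose values are described below are shown because they differ in whether the core motif of such a factor lies near the start. Each run holds 250 bases before and 10 bases after the transcription start, 5′ to 3′ on the strand of the gene, from RefSeq on build GRCm38.p6, and capitals mark the motifs found.
Cyp2c65, chr19:39060756-39061015, plus strand: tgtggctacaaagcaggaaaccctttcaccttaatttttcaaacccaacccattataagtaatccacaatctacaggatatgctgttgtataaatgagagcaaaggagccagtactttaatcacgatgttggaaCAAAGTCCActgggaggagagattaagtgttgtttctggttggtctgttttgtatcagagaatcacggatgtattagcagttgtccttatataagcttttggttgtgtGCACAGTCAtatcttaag
Cyp3a11, chr5:145879845-145880104, minus strand: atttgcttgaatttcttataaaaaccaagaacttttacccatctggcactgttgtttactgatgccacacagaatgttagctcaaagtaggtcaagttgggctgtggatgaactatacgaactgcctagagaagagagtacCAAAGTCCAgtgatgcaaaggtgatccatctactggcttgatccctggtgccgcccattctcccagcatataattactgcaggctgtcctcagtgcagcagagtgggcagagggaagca
Cyp2c55, chr19:39006769-39007028, plus strand: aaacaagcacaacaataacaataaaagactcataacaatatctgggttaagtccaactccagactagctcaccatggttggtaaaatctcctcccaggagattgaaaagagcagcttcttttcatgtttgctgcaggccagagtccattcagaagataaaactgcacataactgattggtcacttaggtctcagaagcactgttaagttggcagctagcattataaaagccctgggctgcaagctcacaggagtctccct
Cyp4b1, chr4:115647712-115647971, minus strand: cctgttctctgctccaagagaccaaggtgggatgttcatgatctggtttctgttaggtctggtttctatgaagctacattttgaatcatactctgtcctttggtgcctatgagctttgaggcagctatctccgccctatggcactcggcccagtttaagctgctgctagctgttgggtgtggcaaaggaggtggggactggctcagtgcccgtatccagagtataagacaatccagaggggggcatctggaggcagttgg
Sult1a1, chr7:126676409-126676668, minus strand: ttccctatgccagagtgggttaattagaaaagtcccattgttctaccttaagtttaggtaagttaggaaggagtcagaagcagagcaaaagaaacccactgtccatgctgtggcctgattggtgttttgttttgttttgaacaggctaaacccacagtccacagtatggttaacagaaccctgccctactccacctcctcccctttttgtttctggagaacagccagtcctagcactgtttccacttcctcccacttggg
On both strands of the RefSeq windows of 300 bases, CAAAGTCCA (a core of Hnf4a sites) lay in 11 of 137 promoters of 119 members, or 8.03%, against 0.475% of all 32851 promoters. It lay in Cyp3a11, beginning 109 bases before the start, and in Cyp2c65, 116 bases before, and also in Cyp2c40, Cyp2c67, Cyp2c68, Cyp2c69, Cyp2c70, Cyp3a16, Cyp3a41a, Cyp3a41b and Sult1b1. TGACNNNGC (a core of Nrf2 sites) lay in 7.30% of the members' promoters and 12.4% of all promoters, and GCGTG (the core of Ahr sites) in 19.7% and 32.4%. The 2nd run of capitals in Cyp2c65, which begins 8 bases before the start, is the Nrf2 core on the other strand. None of the 3 motifs was found in the windows of Cyp2c55, Cyp4b1 or Sult1a1. Members of one subfamily share sequence, so their promoters are not independent, and a match describes letters only.

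Values are reads divided by a size factor, called normalised reads here. Libraries held 8.32 to 18.7 M reads, of which the ribosomal transcript Rn45s took 0.0642 to 29.4%. The values behaved as reads over the whole gene, introns included. In WT colon, Cntnap2 and Dmd, genes best known from neurons and muscle, and Csn2, a milk protein gene of the mammary gland, had 0.757, 0.478 and 0.799 normalised reads per kb of gene. A rate, called the receptor rate here, was taken over olfactory and vomeronasal receptor genes. Of the 1462 such genes, those without a known length or with a high mean per kb were left out. The receptor rate was 0.289 to 1.32 per kb over the 24 libraries. Its mean ± SD was 1.12 ± 0.29 in KO late colon (n = 3), 0.686 ± 0.110 in KO early colon (n = 4) and 0.578 ± 0.301 in WT colon (n = 5), where mouse 75 had 1.00 and mouse 61 had 0.793. In ileum it was 0.580 ± 0.124 in KO late, 0.869 ± 0.256 in KO early and 0.504 ± 0.188 in WT, with the same numbers of mice. Of the 141 members, 70 had a mean over all libraries of at least 3 times what their gene length and the receptor rate would give, and these are called expressed here. The other 71 are called low. The low members nearest that bound were Cyp3a44 (2.95 times) and Gstm4 (2.73), and the expressed members nearest it were Cyp4f17 (3.13) and Cyp2r1 (3.22). The summed value of the 71 low members correlated with the receptor rate at r = 0.971 over 24 libraries, a description only, since both are read from the same libraries.

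**Figure D1:**
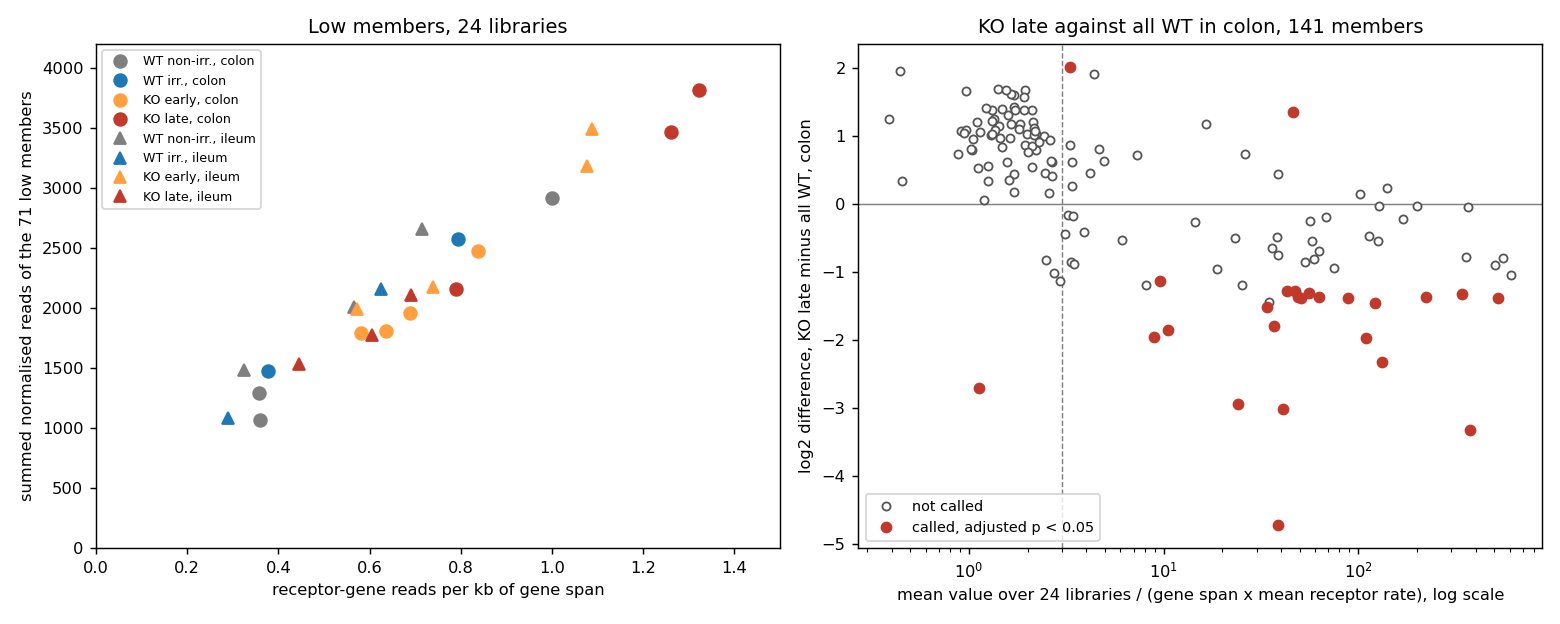
Left, summed normalised reads of the 71 low members (y axis) against the receptor-gene reads per kb of gene (x axis), 1 point a library, circles for colon and triangles for ileum. Right, log2 difference between KO late and all WT colon (y axis) against the ratio of a member's mean to what its length and the receptor rate give (x axis, log scale, dashed line at 3), with called members filled. The low sums lie along a line, and 24 of the 25 called members lie right of the dashed line.

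Expressed and low members were spread unevenly over the families. All 8 Ugt1 rows, all 3 Mgst and both Gstp members were expressed, as were 6 of 7 Gstm, 3 of 4 Gsta, 3 of 4 Gstt, 6 of 10 Ugt2, 21 of 49 Cyp2, 8 of 21 Cyp4, 3 of 9 Cyp3, 6 of 19 Sult and 1 of 2 Gsto. None of the 3 Cyp1 members was. Cyp1a1, the classic target of Ahr, had 20.7 ± 15.1 (SD, n = 5) normalised reads in WT colon and 26.5 ± 6.6 in WT ileum, 2.42 times the level that the receptor rate gives over its length. No Cyp1 member was called in any comparison between groups, while Ahr itself lay between 180 and 314 normalised reads in all 24 libraries.

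In WT mice the families divided between the tissues member by member. Of 141 members, 14 were higher in colon and 19 higher in ileum at an adjusted p under 0.05 (limma, Benjamini-Hochberg over 19588 genes, 5 libraries a tissue). Among all genes, 11.2% were higher and 11.0% lower in colon by the same rule, so the members' shares were near the background. Of the 33, 29 passed in every fit that left out 1 library. Tissue markers followed the labels: 8 of 8 markers of ileal epithelium were lower and 5 of 6 markers of colonic epithelium higher in colon.

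The Cyp2d genes, P450s best known for drug oxidation, had the widest gaps toward colon. Cyp2d34 had 6195.1 and 2976.0 normalised reads in the colon of the WT irradiated mice and 4450.7, 5481.4 and 3945.6 in that of the WT non-irradiated mice, against 7.0 to 11.9 in the 5 WT ileum libraries. Its difference was 8.83 ± 0.23 (log2 ± SE, adjusted p = 1.9e-17 by limma), the smallest p of the members. Cyp2d12 (7.50 ± 0.53), Cyp2d13 (6.20 ± 0.54), Cyp2d9 (6.19 ± 0.37) and Cyp2d10 (5.71 ± 0.34) were higher in colon too. Of the transcript windows of 50 bases, the read length, Cyp2d10 shares 40.5% and Cyp2d9 29.0% with other genes, mostly of the same cluster, so the split between them is uncertain. For Cyp2d34 and Cyp2d12 the shares were 13.7 and 17.9%. Cyp2d26 went the other way, with 165 ± 32 (SD) in WT colon and 848 ± 333 in WT ileum (-2.24 ± 0.47, adjusted p = 0.00097).

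Among the other Cyp2 genes, Cyp2c55, an arachidonic acid epoxygenase and hydroxylase, was 5.48 ± 0.56 higher in colon on the log2 scale. It had 22684.0, 36248.5, 42098.9, 40336.5 and 30592.0 normalised reads in WT colon and 380.0 to 1203.3 in WT ileum. Cyp2f2 was also higher in colon (1.90 ± 0.35). The constitutive androstane receptor target Cyp2b10 was lower in colon (-4.27 ± 0.40), as were Cyp2u1 (-3.87 ± 0.44), Cyp2j11 and Cyp2j6, an epoxygenase (-1.63 and -1.52), and the low member Cyp2c66 (-1.91). In all, 8 Cyp2 members were higher and 6 lower in colon.

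Cyp3a and Cyp4 genes were called in 1 direction. Cyp3a11, the mouse counterpart of the main human drug-metabolising P450, had 1690.1, 1733.7, 3115.9, 1783.5 and 2920.6 in WT ileum and 12.7 to 57.9 in WT colon (-6.20 ± 0.48, adjusted p = 1.0e-09). Cyp3a25 (-5.03 ± 0.38) and Cyp3a13 (-0.93 ± 0.24) were lower in colon as well, so 3 of 9 Cyp3 members were lower and none higher. Cyp4 P450s oxidise fatty acids and eicosanoids. Of the 21 Cyp4 members, 4 were lower in colon and none higher: Cyp4v3 (-5.18 ± 0.25), Cyp4f14 (-2.47 ± 0.32), Cyp4f40 (-1.67 ± 0.24) and Cyp4b1 (-1.65 ± 0.38).

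Conjugating families were mixed. Sult1a1, a phenol sulfotransferase, had 1268.1 to 2005.6 in WT colon and 15.5 ± 6.2 (SD) in WT ileum, a difference of 6.71 ± 0.60 (adjusted p = 8.6e-09). Sult1c2 was higher in colon (2.76 ± 0.36) and the cholesterol sulfotransferase Sult2b1 lower (-1.89 ± 0.34). Ugt2a3 was lower in colon (-5.61 ± 0.38) with Ugt2b36 (-2.09 ± 0.35), and the low member Ugt2a1 just passed as higher (adjusted p = 0.049). No Ugt1 row was called, and Ugt1a10 differed by 0.51 ± 0.24 (adjusted p = 0.16). Both tissues came from the same mice, and with the mouse as a block 4 of the rows, Ugt1a10, Ugt1a9, Ugt1a7c and Ugt1a6b, passed as higher in colon (limma adjusted p 0.039 to 0.041), as rows that share reads. Gstm2 (1.93 ± 0.26) and Gstm1 (1.35 ± 0.34) were higher and Gstm3 lower in colon (-1.77 ± 0.32), 3 genes of 1 subfamily that conjugate glutathione to electrophiles. Mgst1, a membrane-bound glutathione transferase, was lower in colon (-2.07 ± 0.27), Gsta1 was lower (-1.80 ± 0.57, with 89.7% of its windows shared with other genes), and the low member Gsto2 was higher (0.83 ± 0.25). Gstp1, Gstt3, Gsto1, Mgst2, Sult1d1 and Ugt2b34, the members of their families with the highest mean, did not pass, with differences of -0.52 to 0.24, nor did Gsta4 (-0.12 ± 0.27) or Gstm5 (0.58 ± 0.22, adjusted p = 0.066). With the mouse as a block Gstm5 passed (adjusted p = 0.028, limma).

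**Figure D2:**
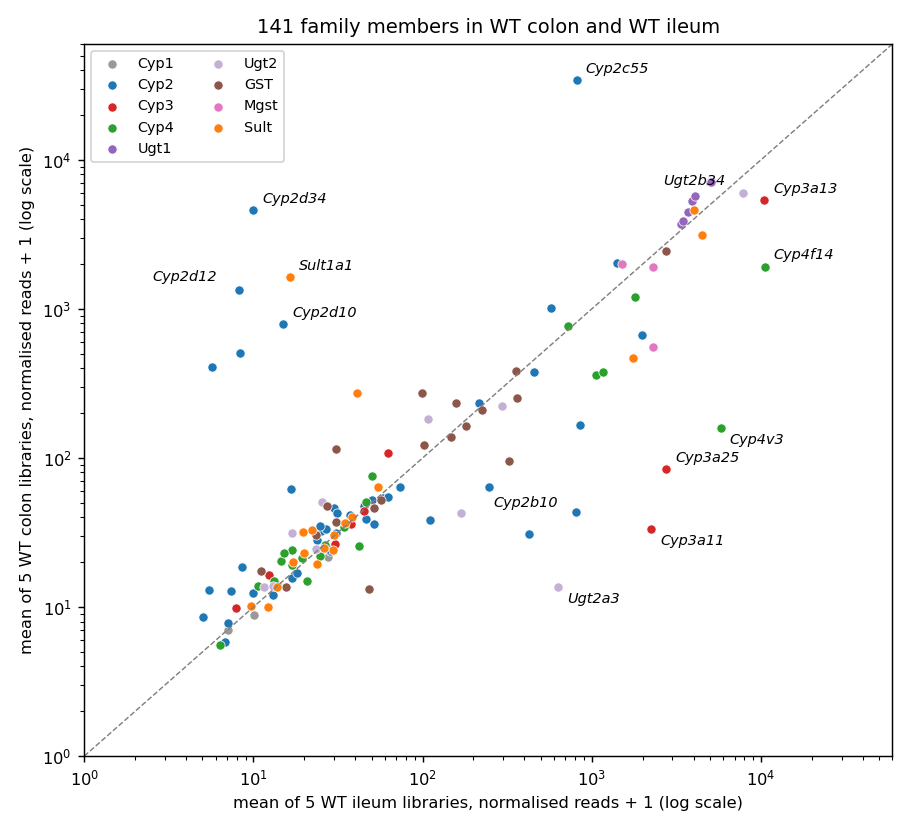
Mean normalised reads + 1 over 5 WT colon libraries (y axis) against 5 WT ileum libraries (x axis), both on log scales, 1 point for each of the 141 members, coloured by family. Cyp2d34, Cyp2d12, Cyp2d10 and Sult1a1 lie far above the dashed line of equality, and Cyp3a11, Cyp3a25, Cyp4v3 and Ugt2a3 far below it.

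In the colon of KO late mice, more of the expressed members were lower than in WT, across phase 1 and phase 2 families. Against the 5 WT libraries, 23 members fell and 2 rose (limma, adjusted over 19145 genes). Of all genes tested, 2.79% fell and 1.71% rose. Among genes at 3 times the receptor rate or more, 4.17% fell, and 22 of the 70 expressed members did. The median difference was -0.76 for expressed members and -0.30 for all genes so selected. For low members it was 1.01, and for all genes below that bound 0.86, in the libraries whose receptor rate was higher. In all, 30 members had every KO late value under every WT value, 28 of them expressed, where 10.5% of all genes did. Every KO late value was above every WT value for 9 members, 4 of them expressed, where 1040 of 19145 genes did. Both shares are over all genes tested. No such share over genes at 3 times the receptor rate or more is given beside the 28 and the 4. The 8 Ugt1 rows share reads and are all counted among the members that fell, the 70 expressed and the 28. These counts and the median of expressed members thus take 1 locus 8 times. In bulk samples, fewer cells of a type and less RNA per cell cannot be told apart.

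How firm these calls were depended on single libraries. The shares of all genes in the alternative fits below are not given, so their counts have no background beside them. Without KO late mouse 50, 7 members passed, without KO late mouse 49, 12, and without WT mouse 73, 16. Without WT mouse 61, 40 passed, and without WT mouse 75, whose receptor rate was the highest of the WT colon libraries, 88 passed, of which 56 were higher and 51 of these were low members. A further fit took as a covariate the log2 share of receptor-gene reads among all reads but Rn45s, called the receptor covariate here. With it 1 passed, Ugt2b5 (-2.52, adjusted p = 0.019). Receptor-gene reads were 943 ± 166 (SD) per M in KO late colon and 395 ± 223 in WT colon. The covariate thus goes with the group, and this fit cannot fully tell them apart. Subtracting the receptor rate times the gene length from each value, a step added after the data were seen, gave 25 again (22 lower). With a library also left out, 4 to 43 passed. Against the 2 WT irradiated mice alone, which match KO late in time after chimerism, 6 passed: Cyp2d22, Cyp2d26, Cyp4b1, Cyp4f13, Sult1a1 and Sult1c2. These 6 were also the members that passed in each of 8 fits that left out 1 KO late or WT library, with the highest adjusted p at 0.037.

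Sult1a1 had the largest fall of the members. Its values were 193.2, 35.0 and 32.5 normalised reads in KO late colon, against 1483.1 and 1649.7 in WT irradiated and 2005.6, 1803.3 and 1268.1 in WT non-irradiated colon. The groups did not overlap, and mouse 49 held the highest KO late value. The difference was -4.72 ± 0.78 (adjusted p = 0.0044, limma), a 26.3-fold fall on the log2(value + 1) scale. Sult1c2, another cytosolic sulfotransferase, had 78.0, 53.3 and 72.0 against 302.9, 272.1, 389.9, 169.4 and 230.6 (-1.96 ± 0.33, adjusted p = 0.0045). Again no value overlapped. Of the 19 Sult members these 2 fell and none rose. Sult1d1, an amine and phenol sulfotransferase with the highest mean of the family, had 2852.7, 2164.3 and 3166.1 against 3627.2 to 5223.4 and did not pass (-0.77 ± 0.26, adjusted p = 0.084).

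In Cyp4, 3 of 21 members fell and none rose. Cyp4b1, which hydroxylates fatty acids and some pro-toxins, had 42.1, 61.6 and 24.7 in KO late colon and 334.2, 292.9, 165.6, 544.1 and 454.0 in WT colon. Every KO value was under the lowest WT value, that of mouse 72, and the difference was -3.02 ± 0.48 (adjusted p = 0.0033). With the receptor covariate its size was -3.13, at an adjusted p just above the threshold (0.050). Cyp4f13 had 230.4, 183.2 and 233.8 against 518.9 to 1015.1 (-1.79 ± 0.27, adjusted p = 0.0024), and Cyp4f16 fell by 1.45 ± 0.30 (adjusted p = 0.099 without KO late mouse 50). Cyp4f14, the member with the highest mean, did not pass (-1.05 ± 0.35, adjusted p = 0.082).

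In Cyp2, 6 of 49 members fell and 2 rose. Cyp2c55 had 6374.3, 1609.7 and 3695.7 normalised reads against 22684.0 to 42098.9 in WT colon. All KO late values were far below the WT range, a 9.99-fold fall on the fitted scale (-3.32 ± 0.73, adjusted p = 0.020), but the spread among the KO mice was wide and the adjusted p was 0.14 without mouse 50. Cyp2d22 had 18.6, 35.0 and 31.6 against 253.5, 140.5, 280.3, 346.7 and 136.6 (-2.93 ± 0.44, adjusted p = 0.0024). Cyp2d26 had 58.2, 29.1 and 39.5 against 205.8, 146.5, 123.6, 166.3 and 182.4 (-1.97 ± 0.30, adjusted p = 0.0028). Neither overlapped with WT. Cyp2d12 fell from 1339 ± 529 (SD, n = 5) to 263 ± 101 (n = 3), with an adjusted p of 0.037 that became 0.15 without mouse 50, and Cyp2d13 fell by 1.38 ± 0.34 (adjusted p = 0.035, and 0.12 without mouse 49). Cyp2d34, the Cyp2d gene with the widest gap between the tissues, did not pass (-0.79 ± 0.31, adjusted p = 0.10). The low member Cyp2w1, a P450 known from fetal gut and colon tumours, had 0.0, 0.8 and 2.0 against 6.4 to 24.7, and its call was lost without mouse 49 (adjusted p = 0.090).

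The 2 members that rose belong to Cyp2j, a subfamily that makes epoxides from arachidonic acid. Cyp2j6 had 1387.3, 1239.9 and 2902.7 in KO late colon against 606.6, 773.9, 663.8, 677.8 and 630.8 in WT (1.35 ± 0.29, adjusted p = 0.017). Every KO late value exceeded every WT value, and without mouse 57, the highest, the adjusted p was 0.055. Cyp2j11 had 107.8, 169.9 and 130.2 against 28.0, 52.0, 12.7, 28.0 and 65.1 (2.02 ± 0.50, adjusted p = 0.037). It lies only 3.30 times above the receptor rate. Its difference was 0.62 (adjusted p = 0.64) with the receptor covariate, and its adjusted p was 0.18 without mouse 50.

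Of the 9 Cyp3 members, Cyp3a13 fell in KO late colon, where it had 1898.9, 1964.4 and 2548.6 against 4328.4 to 7325.1 in WT (-1.32 ± 0.29, adjusted p = 0.020, and 0.11 without mouse 50). It is a P450 of the drug-metabolising Cyp3a cluster, and its groups did not overlap. Of 3 Cyp1 members none passed, with Cyp1a1 at 31.0, 40.8 and 27.6 against 3.8 to 37.2, overlapping values of a low member.

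All 8 Ugt1 rows fell in KO late colon, by 1.27 to 1.38 (adjusted p 0.017 to 0.026, and 0.12 to 0.16 without mouse 50). They are not 8 measurements. The Ugt1 locus has alternative first exons that splice to shared last exons, 7 of the 8 rows end at the same base, and in 24 of 24 libraries the values never increased along the cluster from Ugt1a10 to Ugt1a1. Ugt1a10, the first row, had 3266.4, 1973.6 and 3883.1 in KO late colon against 6490.7 to 7924.2 in WT colon, with no overlap. Taking the difference between neighbouring rows gives the reads that lie between 2 starts. In WT colon the last stretch, from the start of Ugt1a1 on, held 3713 ± 492 (SD, n = 5), or 52.4% of the first row, and the stretch from Ugt1a7c to Ugt1a6b 1324 ± 176 (18.7%). In KO late colon these were 1563 ± 795 and 655 ± 210 (n = 3), and the stretch from Ugt1a6a to Ugt1a5 was 352 ± 116 against 842 ± 122. The stretches from Ugt1a10 to Ugt1a7c held 9.12 and 19.7 in WT colon and 20.0 and 50.2 in KO late colon, so the rows named Ugt1a10 and Ugt1a9 hold mainly reads of the genes downstream. These differences were not tested.

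**Figure D3:**
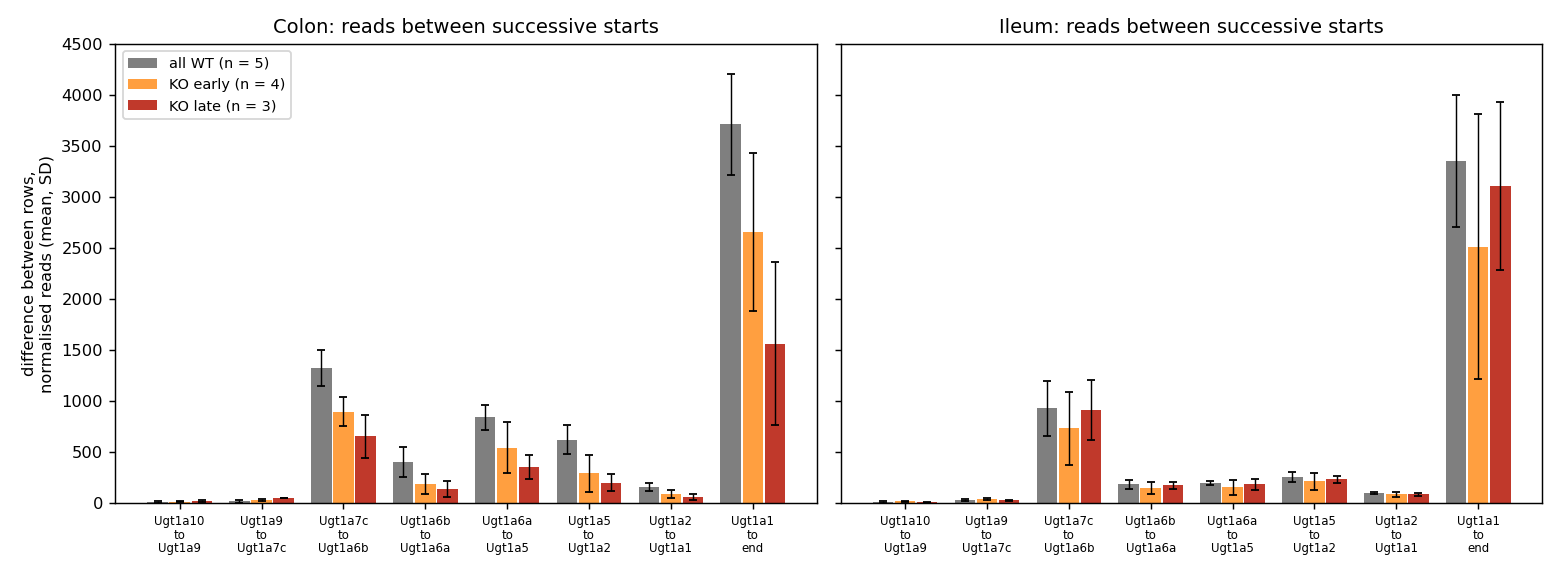
Normalised reads between successive starts of the Ugt1 cluster (y axis, mean and SD as bars and error bars) for each stretch in order along the cluster (x axis), in colon (left) and ileum (right), for all WT (n = 5), KO early (n = 4) and KO late (n = 3). In colon the KO late bars are the lowest of the 3 in 6 of the stretches, and in ileum the error bars of the 3 groups overlap in every stretch but the first, from Ugt1a10 to Ugt1a9, where KO early lies above KO late.

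Among the 10 Ugt2 members, which glucuronidate steroids, bile acids and drugs, Ugt2b5 fell, with 70.6, 43.3 and 35.5 in KO late colon against 116.9, 289.2, 172.0, 136.8 and 200.9 in WT (-1.85 ± 0.36, adjusted p = 0.012, and 0.068 without mouse 50). Ugt2b5 shares 41.7% of its windows with other genes, most with Ugt2b38, so reads from these windows cannot be assigned to it alone. The windows are of spliced transcripts, and introns were not compared. Ugt2b34, the member with the highest mean, had 3524.1, 2228.4 and 4306.2 against 4979.4 to 6861.5. It did not overlap with WT but did not pass (-0.89 ± 0.25, adjusted p = 0.061).

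Of the glutathione transferases, Gstm3 and Gstt1 fell and none rose in KO late colon. Gstm3 had 31.0, 25.8 and 40.4 against 65.9 to 131.2 (-1.50 ± 0.32, adjusted p = 0.017, with 28.8% of its windows shared with other genes), and Gstt1, a theta-class enzyme, 78.0, 62.5 and 46.4 against 107.7 to 180.9 (-1.13 ± 0.27, adjusted p = 0.028). Both lost the call without mouse 50 (adjusted p = 0.10 and 0.11). The Gsta, Gstp, Gsto and Mgst families had no call. The expressed members Gsta1 (1.92 ± 0.63, limma adjusted p = 0.080) and Gsta3 (0.73 ± 0.28, limma adjusted p = 0.098) were higher without passing. Gsta1 shares 89.7% of its windows with other genes. Gsta4, which clears 4-hydroxynonenal, differed by -0.27 ± 0.36, Gstp1 by -0.22 ± 0.31, Gsto1 by -0.04 ± 0.21 and Mgst2 by -0.54 ± 0.22. Nor did Gstm5 (0.15 ± 0.25) or Gstt3 (-0.69 ± 0.31) pass.

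**Figure D4:**
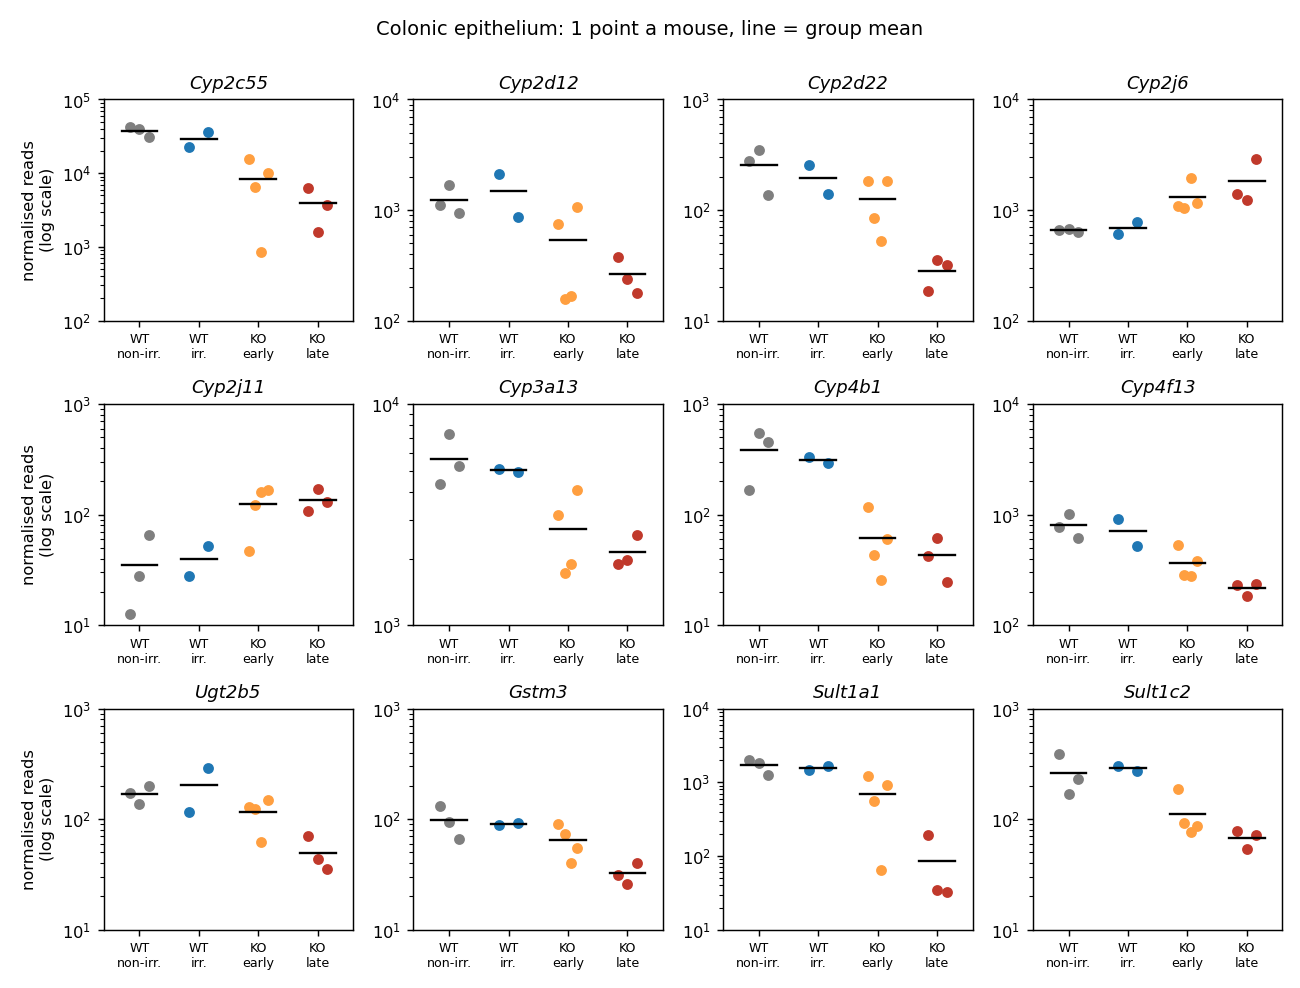
Normalised reads (y axis, log scale) of 12 members in colon, 1 point a mouse with a line at the group mean, for the 4 groups (x axis; irr. is irradiated). Cyp2d22, Cyp4b1, Cyp4f13, Sult1a1 and Sult1c2 have KO late points that do not overlap with WT, Cyp2j6 and Cyp2j11 lie higher in KO late, and the KO early points of Cyp4b1 also lie below all WT points.

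Other measures moved with the same libraries. The summed level of 6 colonic epithelium markers was 51050.7 to 113571.2 in KO late and 98486.8 to 199106.6 in WT colon, and 1 of them, Slc26a3, fell. The summed level of 8 ileal epithelium markers in colon was 5746.3 to 7795.8 in KO late and 11576.0 to 16651.0 in WT, without overlap, and 2 of them fell, Fabp2 and Slc10a2. Rn45s took 0.0642 to 1.43% of the reads in KO late and 0.105 to 20.0% in WT colon. Of 8 general epithelium markers none was called. Of 10 myeloid markers 1 rose, Mrc1, with summed levels of 1995.5 to 2870.3 in KO late and 1251.3 to 2725.2 in WT. Of the 10 leukocyte markers, 9 were tested and none called, with sums of 325.6 to 724.5 against 253.6 to 540.8. Of 10 markers of stroma and vessels 1 rose, Acta2, with sums of 400.4 to 702.8 against 277.7 to 654.5. No marker of these lists was at 0 in all libraries of a group. Their part in the members' differences was not tested.

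In the colon of KO early mice 2 members fell and none rose, where 0.606% of all genes fell. Cyp4b1 had 118.1, 43.5, 25.6 and 60.0 normalised reads against 165.6 to 544.1 in WT colon, without overlap (-2.62 ± 0.44, adjusted p = 0.00995). It passed in each of 9 fits that left out 1 library, with the highest adjusted p at 0.046, but against the WT irradiated mice alone the adjusted p was 0.13. Sult1c2 had 186.4, 92.2, 76.9 and 86.5 against 169.4 to 389.9, with mouse 100 inside the WT range (-1.34 ± 0.30, adjusted p = 0.046). Its call held in 3 of 9 such fits, and without mouse 118 the adjusted p was 0.22. Cyp2c55 had 15573.0, 6580.0, 849.0 and 10190.5, all under the lowest WT value of 22684.0, but these values were widely spread and it did not pass (-2.62 ± 0.67, adjusted p = 0.079). Sult1a1 had 1210.9, 552.0, 65.2 and 918.4, with mouse 118 again the lowest, against 1268.1 to 2005.6 (-1.85 ± 0.72, adjusted p = 0.28). In all, 9 members had every KO early value under every WT value, all of them expressed, where 4.29% of all genes did. They were Cyp2c55, Cyp3a13, Cyp4b1, Cyp4f16, Gstt1, Sult1a1, and Ugt1a10, Ugt1a7c and Ugt1a9 as rows that share reads. Above every WT value lay 2 members, where 405 of 19145 genes did. These shares are over all genes tested, and none over genes at 3 times the receptor rate or more is given. Mgst1 had 1382.1, 1139.2, 1077.4 and 1034.3 against 402.6 to 735.2, higher in each KO early mouse than in any WT mouse (1.10 ± 0.27, adjusted p = 0.065).

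KO late and KO early colon did not differ in any member by limma or edgeR, with 27 members at an unadjusted p under 0.05, while DESeq2 called 3, Cyp2d22, Cyp2d26 and Sult1a1. The shares of all genes by these rules are not given here, so the counts have no background beside them. Cyp2d22 had 183.0, 84.0, 52.8 and 184.2 in KO early and 18.6, 35.0 and 31.6 in KO late colon, without overlap (-1.97 ± 0.46, limma adjusted p = 0.26). Both KO groups were compared with the same 5 WT libraries.

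In the ileum no member was called in either KO group by limma or edgeR. For KO late, 11 members had an unadjusted p under 0.05 and DESeq2 called 3, Gsta4, Gstm3 and Gstt1. For KO early these numbers were 48 and 24, and 9 were called with the receptor covariate. No share of all genes stands beside these counts, so they are not read as a trait of the members. The receptor rate was 0.869 in KO early ileum and 0.504 in WT ileum. Both KO groups were set against the same 5 WT libraries. The members given below as values were chosen after they were seen, and all had differences below 0 in KO. They are not the largest gaps throughout. In KO early, Cyp2d26 had a wider gap than some of them (-1.79 ± 0.59, limma adjusted p = 0.093). The expressed members Cyp4a29 (1.76 ± 0.50) and Cyp2j11 (1.23 ± 0.31) were higher in KO early, both at a limma adjusted p of 0.089. In KO late ileum 11 of 139 members had every value under every WT value, 9 of them expressed, where 1.17% of all genes did. In KO early ileum 9 of 139 did, all expressed, a share near the 6.15% of all genes. Above every WT value lay 2 members in KO late ileum and 5 in KO early ileum, where 250 and 903 of 19122 genes did. The shares in ileum, too, are over all genes tested and not over genes at 3 times the receptor rate or more.

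Gsta4 had 84.1, 139.5 and 98.8 in KO late and 84.2, 75.7, 67.5 and 64.7 in KO early ileum, against 182.9, 235.7, 203.5, 210.3 and 288.8 in WT ileum. Both KO groups lay below the WT range (-1.07 ± 0.23, adjusted p = 0.84, and -1.60 ± 0.21, adjusted p = 0.055). Gstm3 had 122.8, 92.6 and 89.3 in KO late and 128.6, 158.0, 42.3 and 47.0 in KO early against 235.9 to 400.5, also without overlap (-1.64 ± 0.39 and -1.97 ± 0.36, adjusted p = 0.088 for the latter). Gstt1 had 77.4, 50.2 and 49.4 in KO late against 94.5 to 205.9 (-1.28 ± 0.27), while KO early values reached 95.3, inside the WT range. In the same libraries Cyp3a11 had 890.4, 956.3 and 452.0 in KO late and 419.0, 1417.9, 374.8 and 172.2 in KO early, against 1690.1 to 3115.9 (-1.57 ± 0.49 and -2.29 ± 0.45, adjusted p = 0.088 for the latter). All of its KO values lay below WT. Cyp3a25 had 994.6, 1084.7 and 858.5 in KO late and 574.1, 1775.5, 649.9 and 237.9 in KO early, against 1799.9 to 4500.4 (-1.41 ± 0.47 and -2.04 ± 0.43). Ugt2a3 had 377.8, 406.2 and 362.8 in KO late and 334.7, 232.1, 232.7 and 69.9 in KO early, against 490.3 to 969.8 (-0.68 ± 0.39 and -1.69 ± 0.36). Cyp2c65, a gene of the Cyp2c cluster, had 883.8, 948.5 and 948.7 in KO late and 809.1, 837.2, 623.7 and 338.1 in KO early, against 939.6, 1597.1, 1582.4, 954.4 and 2020.0. KO early lay below the WT range and KO late reached into it (-1.14 ± 0.29, adjusted p = 0.089 for KO early). Mouse 120 was the lowest KO early mouse for all of Cyp3a11, Cyp3a25, Ugt2a3 and Cyp2c65. Ribosomal Rn45s took 3.81 to 29.4% of the reads in KO early ileum and 0.130 to 25.4% in WT ileum. The summed level of 10 proliferation markers was 2921.5 to 5922.4 in KO early and 5244.1 to 9577.5 in WT ileum, that of 8 hepatocyte markers 243.5 to 588.5 and 149.5 to 264.4, and that of 10 markers of stroma and vessels 365.8 to 634.8 and 218.6 to 511.7. None of these markers was called, no list had a marker at 0 in all libraries of a group, and their part and that of Rn45s was not tested.

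**Figure D5:**
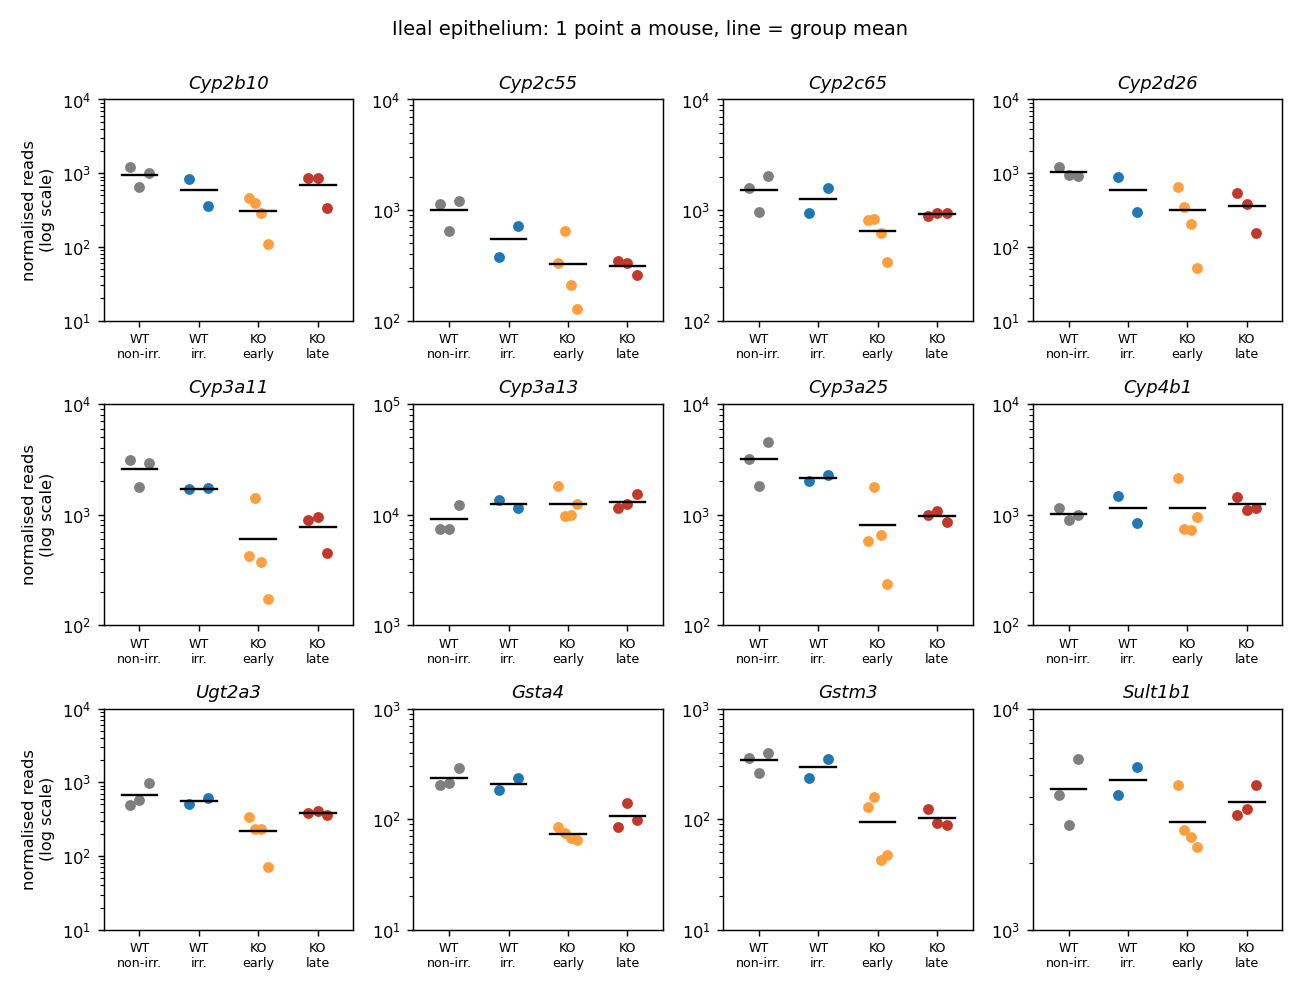
Normalised reads (y axis, log scale) of 12 members in ileum, 1 point a mouse with a line at the group mean, for the 4 groups (x axis; irr. is irradiated). Cyp3a11, Cyp3a25, Ugt2a3, Gsta4 and Gstm3 have KO points below all WT points, and Cyp3a13, Cyp4b1 and Sult1b1 overlap.

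The difference between the tissues in the KO effect was tested directly. For KO late, 3 members had a more negative effect in colon than in ileum, where 0.276% of all genes did: Sult1a1 (-4.65 ± 0.98, adjusted p = 0.025), Cyp4b1 (-3.25 ± 0.61, adjusted p = 0.012) and Cyp3a13 (-1.69 ± 0.39, adjusted p = 0.044). Cyp4b1 in ileum had 1445.8, 1100.3 and 1157.7 in KO late against 834.5 to 1460.5 in WT, overlapping values. Cyp3a13 had 11511.6, 12372.1 and 15392.4 in KO late ileum against 7355.8 to 13435.8. Sult1a1 was between 2.2 and 23.9 in every ileum library, and its difference in KO late ileum was -0.07 ± 0.48. These values showed no fall of the size seen in colon, but a smaller one could be missed at values this low. Leaving out 1 KO late colon library raised the adjusted p of Sult1a1 to 0.11 (mouse 50), of Cyp4b1 to 0.051 (mouse 57) and of Cyp3a13 to 0.14 (mouse 50), and against the WT irradiated mice alone none of them passed. Colon and ileum of a mouse are paired, and with the mouse as a block 19 members passed, these 3 among them (adjusted p 0.0054, 9.3e-05 and 0.0067). The shares of all genes given here, for KO late and KO early, are from the fit without the block. The larger numbers with the block therefore have no background beside them and are not read as a trait of the members. Of the other members that passed with the block in KO late, Cyp2d22 (-2.51), Cyp4f13 (-1.58), Cyp4f16 (-1.45), Ugt2b5 (-2.06) and the 8 Ugt1 rows (-1.17 to -1.26), which share reads, were more negative in colon. Cyp2c54 (1.62), Cyp2c66 (2.17), Cyp2j11 (1.82) and Cyp3a11 (2.02) were more positive. Cyp2c54 and Cyp2c66 are low members, and Cyp2j11 lies little above the bound for expressed members. The receptor rate was 1.12 per kb in KO late colon and 0.580 in KO late ileum. For KO early, Cyp4b1 alone passed (-2.59 ± 0.56, adjusted p = 0.040, and 0.11 without KO early mouse 118 in colon), where 0.245% of all genes were lower. With the mouse block 13 members passed: Cyp4b1, Cyp3a13, Cyp2d34 and Cyp4f13 with a more negative effect in colon (-2.59, -1.33, -1.26 and -0.88), and Cyp3a11, Cyp3a25, Cyp2b10, Cyp2c66, Ugt2a3, Gsta1, Gsta4, Gstm3 and Mgst1 with a more positive one (1.36 to 2.60).

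Irradiation with chimerism, compared between the 2 WT irradiated and 3 WT non-irradiated mice, gave no call by limma in either tissue, with 0 members at an unadjusted p under 0.05 in colon and 1 in ileum. With 2 mice in a group, this does not show that irradiation left the members unchanged.

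The genes around these families were counted from lists, beside the 2.79% of all genes, and 4.17% of genes at 3 times the receptor rate or more, that fell in KO late colon. In KO late colon, 4 of 18 other phase 1 enzymes fell and none rose: the microsomal epoxide hydrolase Ephx1 (-1.05 ± 0.28), the flavin monooxygenase Fmo5 (-1.53 ± 0.38), the monoamine oxidase Maoa (-1.26 ± 0.25) and the alcohol dehydrogenase Adh5 (-1.12 ± 0.22). Of 15 receptors and regulators, 2 fell, Ppara from 707 ± 105 (SD, n = 5) to 238 ± 39 (n = 3; adjusted p = 0.012) and Nfe2l2, the gene of Nrf2, from 2483 ± 290 to 1197 ± 220 (adjusted p = 0.013). Of 8 genes of sulfate and glucuronate donors, 1 fell, Ugdh, which makes UDP-glucuronic acid (5018 ± 716 to 2050 ± 429, adjusted p = 0.019). Of 9 efflux transporters, 1 fell, Abcb1a, the gene of P-glycoprotein (20535 ± 1603 to 5771 ± 500, adjusted p = 0.013). None of 7 genes of electron transfer to P450s, 9 of glutathione supply or 6 tested of other conjugation was called. The median of every list but that of other conjugation (0.27) was below 0, between -0.63 for other phase 1 enzymes and -0.04 for glutathione supply, beside -0.02 for all genes and -0.30 for all genes at 3 times the receptor rate or more. In KO early colon Abcb1a fell (-1.79 ± 0.34, adjusted p = 0.020) and Gpx2, a gut glutathione peroxidase and Nrf2 target, rose from 526 ± 213 to 2028 ± 700 (1.97 ± 0.32, adjusted p = 0.0072). No gene of these lists was called in either KO group of the ileum.

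The genes whose values were most like those of Sult1a1 over the 12 colon libraries were Nts (Pearson r = 0.981), Acsm3 (0.981), Hao2 (0.970), Aadac (0.962) and Mcee (0.961), out of 13255 genes, on the log2 scale. For Cyp2c55 in colon they were Aldh6a1 (0.970), Hsd3b2 (0.970), Gm5485 (0.966), Gm1123 (0.966) and Trak2 (0.962). These are descriptions over libraries that share groups.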

How the data were processed

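Per the labels' protocols, each library was made from 100 ng of RNA with a kit that depletes ribosomal RNA and keeps strand, and was read from 1 end for 50 bp, on 3 lanes in all. That kit does not select polyA RNA, although the labels name the molecule so. Per the submitters' processing notes, the tools were bcl2fastq, HISAT 0.1.6 and HOMER, with build mm9. Strand use in counting is not stated, so overlapping and antisense genes cannot be told apart. The table deposited by the authors holds 1 signal per gene and library, each a read number scaled by a size factor, written with 1 decimal and without coordinates. In each library 99.4 to 100% of the low values were whole multiples of the step of 1 read (0.698 to 2.22, tolerance 0.05), so reads could be recovered for count tests.

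The tests had been set for counts or, if normalised, for limma, and limma 3.58.1 (R 4.3.3) with a trend was run on log2(value + 1). Genes with 10 or more in 2 or more libraries entered. Adjustment was by Benjamini-Hochberg over all genes of a comparison, and a call is an adjusted p under 0.05. Differences are log2 with SE on that scale, which understates changes of low genes. Comparisons within a tissue used its 12 libraries as 4 groups, with the 5 WT libraries weighted equally, and the others used all 24 as 8 groups. edgeR 4.0.16 and DESeq2 1.42.0 were run on recovered reads. The scripts were tested on simulated data.

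Gene lengths for the receptor rate came from RefSeq on GRCm38.p6, another build than that of the table, and shared windows of 50 bases from GENCODE transcripts (139 members matched). Values of single genes were read per gene and not compared between genes.

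Same-numbered colon and ileum libraries come from the same mouse per the labels, which pairs them. Deviations of a mouse's 2 libraries from their group means correlated at -0.36 to 0.70 over genes, above 0.1 in 7 of 12 mice, where the 2 WT irradiated mice share 1 value by construction.

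Members, lists and motifs were chosen with earlier results of these data known. Members were named by a rule: in every comparison the member of each of 13 families with the highest mean; in KO comparisons up to 8 called members in each direction with a group mean of 50 or more; between tissues the largest called change per family and direction; from lists up to 2 genes in each direction; and the 5 genes most like Sult1a1 and Cyp2c55 (for Sult1a1, the list over both tissues is not reported here). The further called members and the values in KO early colon and ileum that passed no test were named after their values were seen. The same holds for Gsta1 and Gsta3 in KO late colon, and for Fmo5, Maoa, Ephx1 and Adh5 as a whole.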

Additional observations from a re-analysis of the deposited data

Results flagged for a closer look

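In 62 groups of 4 mice (the KO early groups), 5 values stood apart from the other 3 by a larger share of the group's range than Dixon's 95% critical value for 4 samples, where chance gives about 1 in 20 groups. In KO early ileum 3 of them came from mouse 100: Cyp2j6 at 3070.3 normalised reads (others 1237.9 to 1390.1), Cyp4b1 at 2143.6 (724.4 to 955.9) and Ugt2b34 at 10749.2 (4384.1 to 4992.4). That library had the highest share of Rn45s, 29.4%. In KO early colon Cyp2j6 in mouse 118 had 1946.6 (others 1041.7 to 1168.3) and Sult1c2 in mouse 100 had 186.4 (76.9 to 92.2).

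The KO effect differed between colon and ileum for Sult1a1 (-4.651, limma adjusted p = 0.025), Cyp4b1 (-3.2498, 0.012) and Cyp3a13 (-1.6859, 0.044) in KO late and for Cyp4b1 (-2.5905, 0.040) in KO early, by a test of the difference itself. In ileum none of these 3 was called, and the values of Sult1a1 there were far below its values in WT colon.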

How the results depend on the processing

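For the 26 named results with a test, 451 of 584 values under the alternatives kept direction and call, 133 kept the direction and lost the call, and none reversed. Between WT tissues the count of called members stayed within 1.5 times (30 to 35 with 1 library left out, 44 with the replicate block). In KO late colon, 25 members were called, 1 with the receptor covariate and 6 against WT irradiated mice alone. With 1 library left out there were 7 to 88, and with the span background subtracted as well 4 to 43. In KO early colon the 2 became 1 with no filter, 5 with library total scaling, 4 with the covariate, 0 against WT irradiated and 1 against WT non-irradiated mice, 0 with the background subtracted, 1 by edgeR, 12 by DESeq2, and 1 to 6 with 1 library left out. In KO late ileum DESeq2 called 3. In KO early ileum the covariate gave 9, the subtraction 5, DESeq2 24, and leaving out 1 library 0 to 5 (5 without KO early mouse 117). KO late against KO early gave 3 by DESeq2 and 0 to 1 with 1 library left out in colon, and 1 (covariate), 3 (subtraction) and 5 (DESeq2) in ileum. For the KO late effect between tissues, the 3 became 6 with library total scaling, 0 and 1 against either WT group, 19 with the replicate block, 1 by edgeR, 9 by DESeq2 and 0 to 7 with 1 library left out. For KO early the 1 became 2, 10 (covariate), 0 and 0, 0 (subtraction), 13 with the replicate block, 2 by edgeR, 4 by DESeq2 and 0 to 2. The cause of these shifts was not tested, and the shares of all genes under these alternatives are not given beside the counts. Between WT tissues the block added calls and lost none: of the members named there Ugt1a10 and Gstm5, and Ugt1a9, Ugt1a7c, Ugt1a6b, Ugt2a2, Cyp2d11, Cyp2s1, Cyp4a32, Cyp4f16 and Sult1c1. Library total scaling moved the median of all genes in KO late colon from -0.02 to 0.09.

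Low members cannot be separated from the reads that every gene received per kb, and with 2 to 5 mice a group, no call does not show that a member was unchanged. Counting error adds to the spread between mice and is largest near the filter.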
